A study of Rattus norvegicus with 12 samples.

Results

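Kinesins are the motor proteins that walk along microtubules, and the genes that encode them were followed in rat skin-derived precursors (SKPs), dermal precursor cells that grow as floating spheres. The members were all features of a Rat Gene 2.0 ST array with exactly 1 gene symbol of the form Kif and a number with at most 1 letter, or Kifc and a digit, and the brightest feature was taken where a symbol had several. This gave 37 genes from 38 features, of 18166 genes with a symbol of their own. They were sorted by known role, with earlier results of these data known, into 13 mitotic, 14 transport and 10 other kinesins. Kif1b was on 5 features that each carried several symbols and was left out by the rule.

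SKPs from newborn Sprague-Dawley rats were grown in medium with FGF2 and EGF, dissociated and cultured for 24 h in 4 groups. These were 100 nM trimebutine maleate together with 100 nM trametinib, 100 nM trimebutine maleate alone, 100 nM alprostadil, and vehicle, with 3 arrays each from 3 independent isolates. Trimebutine is a gut motility drug, trametinib inhibits the kinase MEK, and alprostadil is prostaglandin E1. Trametinib was only given together with trimebutine, so its effect alone was not measured, and each array holds RNA of a whole culture.

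Mitotic kinesins build the spindle, align chromosomes and divide the cell, and many of their genes are switched on as a cell approaches division. Transport kinesins carry vesicles, organelles and the building blocks of cilia in dividing and resting cells alike, and several of them are best known from neurons. Growth factor signalling through MEK and ERK drives precursor cells into the cell cycle.

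Values are log2 expression values, and a difference is one of mean log2 values with its standard error (SE). A gene was called where limma's adjusted p was under 0.05. Array medians lay between 6.41 and 6.50, and the correlation between arrays of 1 group was 0.985 to 0.991. Of the 37 kinesins 35 passed the filter on dim signals (a mean log2 value of 5.83), and Kif2b and Kif6, with values from 5.45 to 5.76 and from 5.11 to 5.47 on all arrays, did not. Among 11 dermal precursor markers the mean log2 value per array lay from 11.18 to 11.26 with trimebutine and trametinib, 10.98 to 11.04 with trimebutine, at 11.08 on all 3 arrays with alprostadil and 10.99 to 11.04 with vehicle, and 5 of the 11 rose and 2 fell in the combination against trimebutine (6 and 2 in a fit blocked by replicate number), beside 16.8% and 16.6% of all genes without it. In culture RNA, fewer cells that express a gene and less of its RNA per cell cannot be told apart.

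The promoters of the mitotic members are shown because these genes moved together in the results that follow. RefSeq promoter sequences (GRCr8 build, 250 bases before to 50 after the start) matched 11 of the 13 mitotic, 9 of the 14 transport and 8 of the 10 other kinesins. They were searched on both strands for TTTGAA and TTCGAA, forms of the cell cycle homology region at many genes of late cell cycle phases, and for CCAAT, the box read by NF-Y. A TTTGAA or TTCGAA was present in 6 of 11 mitotic promoters (54.5%), 0 of 9 transport promoters and 3 of 8 others (37.5%), beside 19.5% of all 27457 promoters of that length. CCAAT was present in 7 of 11 mitotic promoters (63.6%), 2 of 9 transport promoters (22.2%) and 3 of 8 others (37.5%), beside 37.7% of all. Both kinds stood in 5 of the 11 mitotic promoters (45.5%), in 0 of 9 transport promoters, in 2 of 8 others (25%, Kif24 and Kif26b) and in 7.83% of all. No 2 matches overlapped, and a match describes letters and is no evidence of binding.

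The stretches below run 5′ to 3′ from 120 bases before the start to 30 after it, with matches of the 3 motifs on either strand in capitals. The first 5 are the mitotic promoters that held both kinds, and the last is the transport gene Kif5b for comparison. They lie at chr8:71320555-71320704 (minus strand, Kif23), chrX:69761763-69761912 (plus, Kif4a), chr1:191080849-191080998 (minus, Kif22), chr20:5000809-5000958 (plus, Kifc1), chr1:241840896-241841045 (plus, Kif20b, whose CCAAT at −155 lies outside the stretch) and chr17:56185266-56185415 (plus, Kif5b).
Kif23: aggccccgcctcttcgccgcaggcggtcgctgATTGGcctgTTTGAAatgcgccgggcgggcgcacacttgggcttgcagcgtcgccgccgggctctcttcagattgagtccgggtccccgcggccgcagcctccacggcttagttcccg
Kif4a: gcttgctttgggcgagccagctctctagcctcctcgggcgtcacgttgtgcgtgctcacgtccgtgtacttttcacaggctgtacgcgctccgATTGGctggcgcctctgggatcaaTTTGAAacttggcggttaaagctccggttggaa
Kif22: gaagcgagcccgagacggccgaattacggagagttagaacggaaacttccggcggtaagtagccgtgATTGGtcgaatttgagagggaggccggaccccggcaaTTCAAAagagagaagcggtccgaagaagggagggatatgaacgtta
Kifc1: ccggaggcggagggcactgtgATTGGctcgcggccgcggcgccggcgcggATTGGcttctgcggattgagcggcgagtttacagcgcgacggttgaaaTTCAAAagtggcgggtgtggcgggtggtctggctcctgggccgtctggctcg
Kif20b: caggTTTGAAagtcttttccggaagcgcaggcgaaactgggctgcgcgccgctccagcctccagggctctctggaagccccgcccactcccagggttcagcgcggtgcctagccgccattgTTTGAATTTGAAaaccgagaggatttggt
Kif5b: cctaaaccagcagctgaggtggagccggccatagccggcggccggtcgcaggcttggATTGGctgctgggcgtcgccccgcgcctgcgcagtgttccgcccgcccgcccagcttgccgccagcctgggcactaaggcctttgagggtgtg
Among these, the TTTGAA of Kif23 began at −79 from the start, with CCAAT on the opposite strand at −88. In Kif4a the motifs inside the stretch also lay on opposite strands, with TTTGAA at −3 and CCAAT at −27. A further CCAAT of Kif4a, at −175, lay outside the stretch on the same strand as its TTTGAA. In Kif22 and Kifc1 all matches inside the stretch lay on the minus strand relative to the gene. These were TTTGAA at −16 and CCAAT at −53 in Kif22, and TTTGAA at −22 and CCAAT at −70 and −99 in Kifc1. A further CCAAT of Kif22, at −231, lay outside the stretch on the plus strand. The Kif11 promoter held CCAAT at −61 and none of the other forms, and those of Kif2c, Kif18a and Kif18b held none of the motifs in this window.

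Trametinib was added to trimebutine to ask what MEK inhibition changes in treated cells. Of the mitotic kinesin genes 11 fell, with log2 differences of −0.72 to −2.78, while the transport kinesins split into small rises, small falls and genes that did not pass. Of 12 mitotic kinesins tested, 11 fell, none rose and 1, Kif4b, did not pass, beside 16.6% of all 13636 genes tested that fell. Kif2a, a kinesin of neurons and spindles that was placed among the others, did not pass (−0.07). Of 14 transport kinesins, 5 rose, 2 fell and 7 did not pass, and of 9 others 2 rose, 1 fell and 6 did not pass, beside 16.8% of all genes that rose. In all 21 of 35 kinesins passed in either direction, beside 33.4% of all genes, and when the fit took replicate numbers as a block, an alternative used throughout, again 21, beside 42% of all genes. Over all 13 mitotic members, the untested Kif2b included, the median difference was −1.87, over the 14 transport members it was 0.14, and over all genes tested 0.03.

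Kif23 encodes the motor of centralspindlin, the complex that bundles the midzone of the spindle and marks the place of cytokinesis. Its log2 value was 6.19, 6.07 and 6.05 with trimebutine and trametinib, against 8.81, 9.06 and 8.78 with trimebutine. The alprostadil arrays gave 8.81, 8.80 and 8.85 and the vehicle arrays 8.89, 9.04 and 8.77. The 3 combination arrays lay far below the 9 others, which overlapped one another. The fall (log2 difference −2.78, SE 0.09, limma adjusted p = 5.47e-09) was to a level 6.86-fold lower, and its rank from the lowest difference was 19 among all genes tested.

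Kif11 encodes Eg5, the motor that pushes the spindle poles apart. It read 6.14, 6.15 and 5.93 with trimebutine and trametinib, against 8.50, 8.80 and 8.37 with trimebutine, 8.41, 8.55 and 8.48 with alprostadil and 8.61, 8.84 and 8.53 with vehicle. The difference from trimebutine was −2.49 (SE 0.11, limma adjusted p = 6.77e-08), or 5.60-fold lower. Kif20a encodes the midzone motor that brings Aurora B to the site of cleavage, and it read 6.96, 6.37 and 6.77 with the combination, against 9.14, 9.43 and 8.95 with trimebutine, 9.04, 9.32 and 9.09 with alprostadil and 9.29, 9.44 and 8.99 with vehicle. Its arrays under trametinib spread more (SD 0.30) than those of Kif23 (SD 0.08), and the difference from trimebutine was −2.47 (SE 0.17, limma adjusted p = 8.75e-07).

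Kif2c encodes MCAK, which shortens microtubules at centromeres instead of walking. It read 5.98, 5.79 and 5.80 with trimebutine and trametinib, against 8.13, 8.40 and 7.84 with trimebutine, 7.83, 8.19 and 7.89 with alprostadil and 8.13, 8.42 and 7.94 with vehicle. Kif20b, a kinesin of late cytokinesis, read 5.999, 5.67 and 5.70 with the combination, against 7.93, 8.13 and 7.82 with trimebutine, 7.75, 7.93 and 7.86 with alprostadil and 8.01, 8.25 and 7.91 with vehicle. In both genes 2 of the 3 combination arrays were under the limit of 5.83 used to filter dim genes, while none of the 9 other arrays was. The differences from trimebutine were −2.27 (SE 0.15) for Kif2c and −2.17 (SE 0.12) for Kif20b. That limit is no measured floor, and whether these falls are understated was not tested.

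Kif4a encodes a chromokinesin that sits on chromosome arms and, with Prc1, on the midzone. It read 5.98, 6.04 and 6.02 with trimebutine and trametinib, against 8.06, 8.30 and 7.81 with trimebutine, 7.82, 8.28 and 7.87 with alprostadil and 8.22, 8.44 and 7.98 with vehicle, a difference from trimebutine of −2.04 (SE 0.15, limma adjusted p = 1.57e-06). Kif4b, whose gene carries the name of a second copy of Kif4a, read 6.42, 6.51 and 6.16 with the combination against 6.18, 6.46 and 6.26 with trimebutine and did not pass (0.06, 95% interval −0.16 to 0.28). How far the probes of these 2 genes recognise each other's RNA was not tested.

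The 5 other mitotic kinesins that fell did so by less. Kif18b and Kif18a, which act at microtubule ends on the spindle, differed by −1.87 (SE 0.17) and −1.22 (SE 0.09). Kif15, a second motor that keeps the spindle poles apart, and Kif22, a chromosome-arm motor, differed by −1.35 (SE 0.15) and −1.28 (SE 0.11). The smallest change that passed was that of Kifc1, the minus-end motor that focuses spindle poles. Kifc1 read 6.64, 6.50 and 6.58 with trimebutine and trametinib, against 7.27, 7.48 and 7.12 with trimebutine, 7.17, 7.17 and 7.12 with alprostadil and 7.26, 7.56 and 7.16 with vehicle. The fall was 0.72 (log2 difference −0.72, SE 0.11, limma adjusted p = 0.000346), and again no combination array reached the level of any other array.

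All 3 combination arrays lay below all 9 other arrays in 11 of the 12 mitotic kinesins tested, beside 17.1% of all genes tested. They lay above all 9 in 5 of 14 transport kinesins and in Kif26a, beside 17.6% of all genes. Matched by isolate number, the difference was below 0 in all 3 isolates for each of the 11, which that separation already requires. It ran from −2.99 to −2.62 for Kif23 and from −3.06 to −2.18 for Kif20a. For Kif22 the 3 isolates lay closest together, from −1.31 to −1.24 (chosen after its values were seen).

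**Figure D1:**
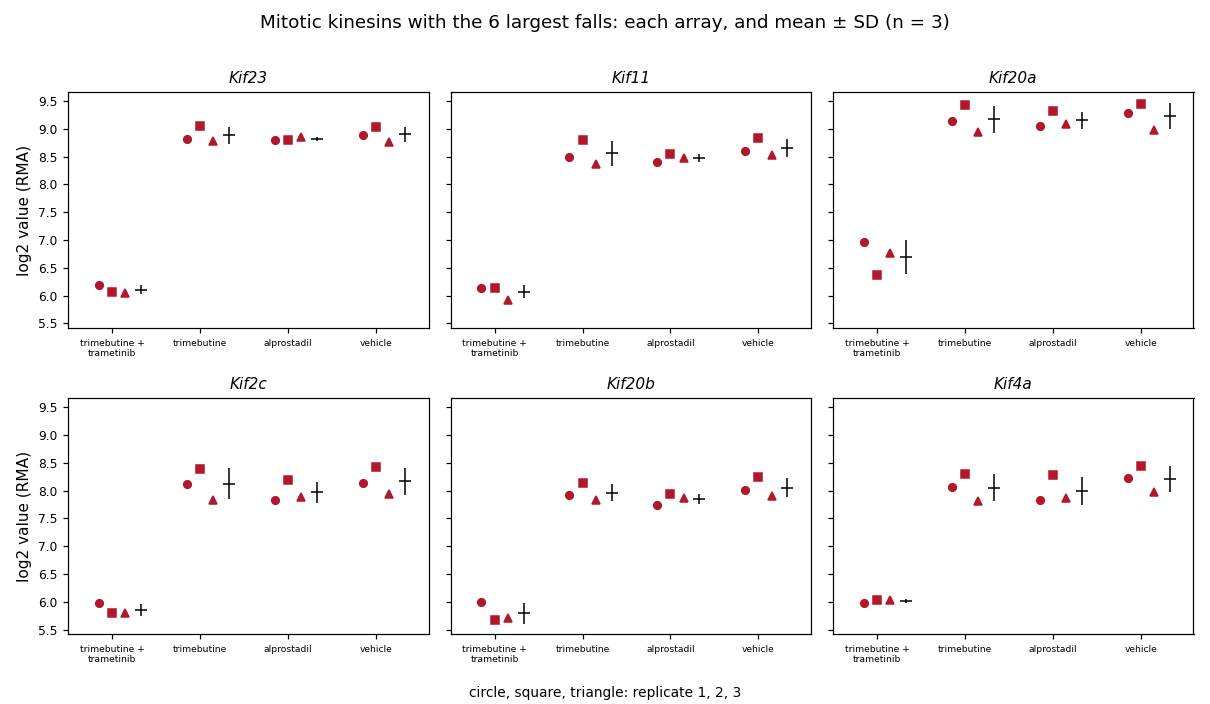
Log2 expression value (y axis) on each array for the 6 mitotic kinesins with the largest falls, in the 4 treatment groups (x axis). Symbols mark replicates 1 to 3 and bars the mean ± SD (n = 3). The combination arrays lie between 5.67 and 6.96, and each gene's other 9 arrays lie above them.

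Transport kinesins moved by less, and both ways. Kif21b encodes a motor that also restrains microtubule growth and is best known from the brain. It read 8.41, 8.12 and 8.24 with trimebutine and trametinib, against 8.01, 7.47 and 7.52 with trimebutine, 7.84, 7.76 and 7.52 with alprostadil and 7.92, 7.74 and 7.37 with vehicle. The rise over trimebutine was 0.58 (SE 0.17, limma adjusted p = 0.0177), and it did not pass without combination replicate 1 (adjusted p = 0.0651), trimebutine replicate 2 (adjusted p = 0.0717) or trimebutine replicate 3 (adjusted p = 0.0619). With the replicate number as a block its adjusted p was 0.000714.

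Kif1c, a vesicle motor found in many tissues, read 9.42, 9.49 and 9.51 with trimebutine and trametinib, against 8.90, 9.09 and 9.06 with trimebutine, 8.79, 8.94 and 9.02 with alprostadil and 8.95, 9.14 and 9.06 with vehicle. It rose by 0.46 (SE 0.08, limma adjusted p = 0.000781) and passed in every alternative in which it was tested. Kif1a, the motor of synaptic vesicle precursors, read 6.93, 7.08 and 6.97 with the combination, against 6.62, 6.62 and 6.66 with trimebutine, 6.74, 6.64 and 6.72 with alprostadil and 6.46, 6.64 and 6.75 with vehicle. It rose by 0.36 (SE 0.07, limma adjusted p = 0.00306). In both genes the combination arrays were above all 9 others.

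Kif5b encodes the widely expressed heavy chain of conventional kinesin. It read 11.77, 11.81 and 11.71 with trimebutine and trametinib, against 11.52, 11.52 and 11.53 with trimebutine, 11.70, 11.48 and 11.54 with alprostadil and 11.50, 11.40 and 11.55 with vehicle. The rise of 0.24 (SE 0.07, limma adjusted p = 0.0154) did not pass without combination replicate 2 (adjusted p = 0.0576). The neuronal heavy chains Kif5a (0.18, adjusted p = 0.157) and Kif5c (0.10, adjusted p = 0.526) did not pass.

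Kif13b, a vesicle motor, read 7.92, 7.74 and 7.91 with trimebutine and trametinib, against 7.57, 7.53 and 7.67 with trimebutine, 7.67, 7.49 and 7.55 with alprostadil and 7.63, 7.47 and 7.67 with vehicle. It rose by 0.27 (SE 0.08, limma adjusted p = 0.0210), although the call was lost without combination replicate 1 (adjusted p = 0.0705) or 3 (adjusted p = 0.0665) and without trimebutine replicate 1 (adjusted p = 0.0610) or 2 (adjusted p = 0.0763). With the replicate number as a block Kif13b passed (limma adjusted p = 0.00295). The related Kif13a, which carries cargo to recycling endosomes, did not pass (0.03, 95% interval −0.10 to 0.16).

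The kinesin-2 family includes motors that build cilia, and 2 of the 3 members measured here fell. Kif3a, a subunit of the heterotrimeric cilium motor, read 7.52, 7.61 and 7.79 with trimebutine and trametinib, against 7.85, 7.92 and 7.90 with trimebutine, 7.89, 7.83 and 8.07 with alprostadil and 7.90, 7.83 and 7.83 with vehicle. Its difference was −0.25 (SE 0.08, limma adjusted p = 0.0314). Kif3c read 7.997, 8.09 and 7.96 with the combination, against 8.43, 8.54 and 8.10 with trimebutine, 8.37, 8.49 and 8.26 with alprostadil and 8.48, 8.48 and 8.14 with vehicle, a difference of −0.34 (SE 0.12, limma adjusted p = 0.0487). Kif3b, the partner of Kif3a, had a value of 0.19 (adjusted p = 0.0541) and did not pass.

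Both kinesin-2 calls were weak in the fit without a block. Each of the 6 combination and trimebutine arrays was left out in turn. Kif3a lost its call without any of them other than combination replicate 3, with adjusted p from 0.0541 to 0.118, and Kif3c without any of them other than trimebutine replicate 3, with adjusted p from 0.0725 to 0.178. With the replicate number as a block both passed (adjusted p = 0.0151 for Kif3a and adjusted p = 0.00261 for Kif3c). The endosome motor Kif16b (0.01), Kifc2 (−0.05) and Kifc3 (−0.09) did not pass.

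**Figure D2:**
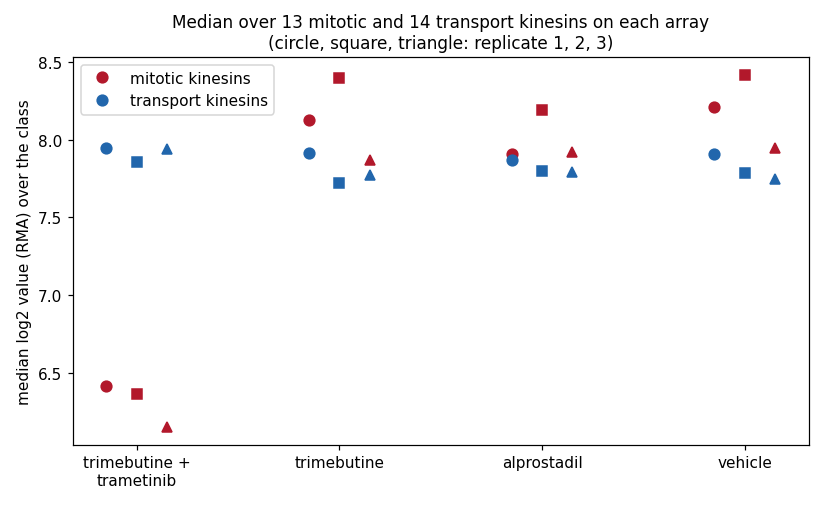
Median log2 value over the 13 mitotic (red) and 14 transport (blue) kinesins on each of the 12 arrays (y axis), by treatment group (x axis), with symbols for replicates 1 to 3. The mitotic median lies between 6.16 and 6.42 on the combination arrays and between 7.87 and 8.42 on the 9 others, while the transport median stays between 7.72 and 7.95 throughout.

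Among the 10 other kinesins, Kif24 moved with the mitotic class. It encodes a microtubule-shortening kinesin of the centriole that holds back cilium formation in cycling cells. It read 6.11, 6.21 and 6.16 with trimebutine and trametinib, against 7.14, 7.37 and 6.88 with trimebutine, 6.80, 7.05 and 6.88 with alprostadil and 7.21, 7.49 and 7.01 with vehicle. The fall of 0.97 (log2 difference −0.97, SE 0.13, limma adjusted p = 0.000183) exceeded that of Kifc1. Its promoter held TTCGAA at −26 and CCAAT at 4 places.

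Kif26a and Kif26b encode kinesins without motor activity that act in signalling in mice. Kif26a read 7.13, 7.29 and 7.15 with trimebutine and trametinib, against 6.86, 6.81 and 6.85 with trimebutine, 6.88, 6.72 and 6.88 with alprostadil and 6.86, 6.68 and 6.89 with vehicle, a rise of 0.35 (SE 0.07, limma adjusted p = 0.00351). The Kif26b promoter held TTTGAA at −9 and CCAAT at −73. Kif26b read 7.56, 7.68 and 7.66 with the combination, against 7.11, 7.21 and 7.44 with trimebutine, 7.51, 7.65 and 7.62 with alprostadil and 7.15, 7.48 and 7.35 with vehicle. It rose by 0.38 over trimebutine (SE 0.10, limma adjusted p = 0.0117), a call lost without trimebutine replicate 1 (adjusted p = 0.0528). With the replicate number as a block Kif26b passed (limma adjusted p = 0.00138). Its alprostadil arrays overlapped the combination arrays, and the difference between those groups was 0.04 (adjusted p = 0.772).

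The remaining others did not pass. They were Kif2a, a microtubule-shortening kinesin of neurons and spindles (−0.07), Kif7, the Hedgehog regulator at the tip of the cilium (0.09), its relative Kif27 (−0.09), Kif9, a kinesin of motile cilia (0.03), Kif12 (0.07) and Kif28p (under 0.01 in size). The untested Kif6 and Kif2b differed by 0.12 and −0.11.

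**Figure D3:**
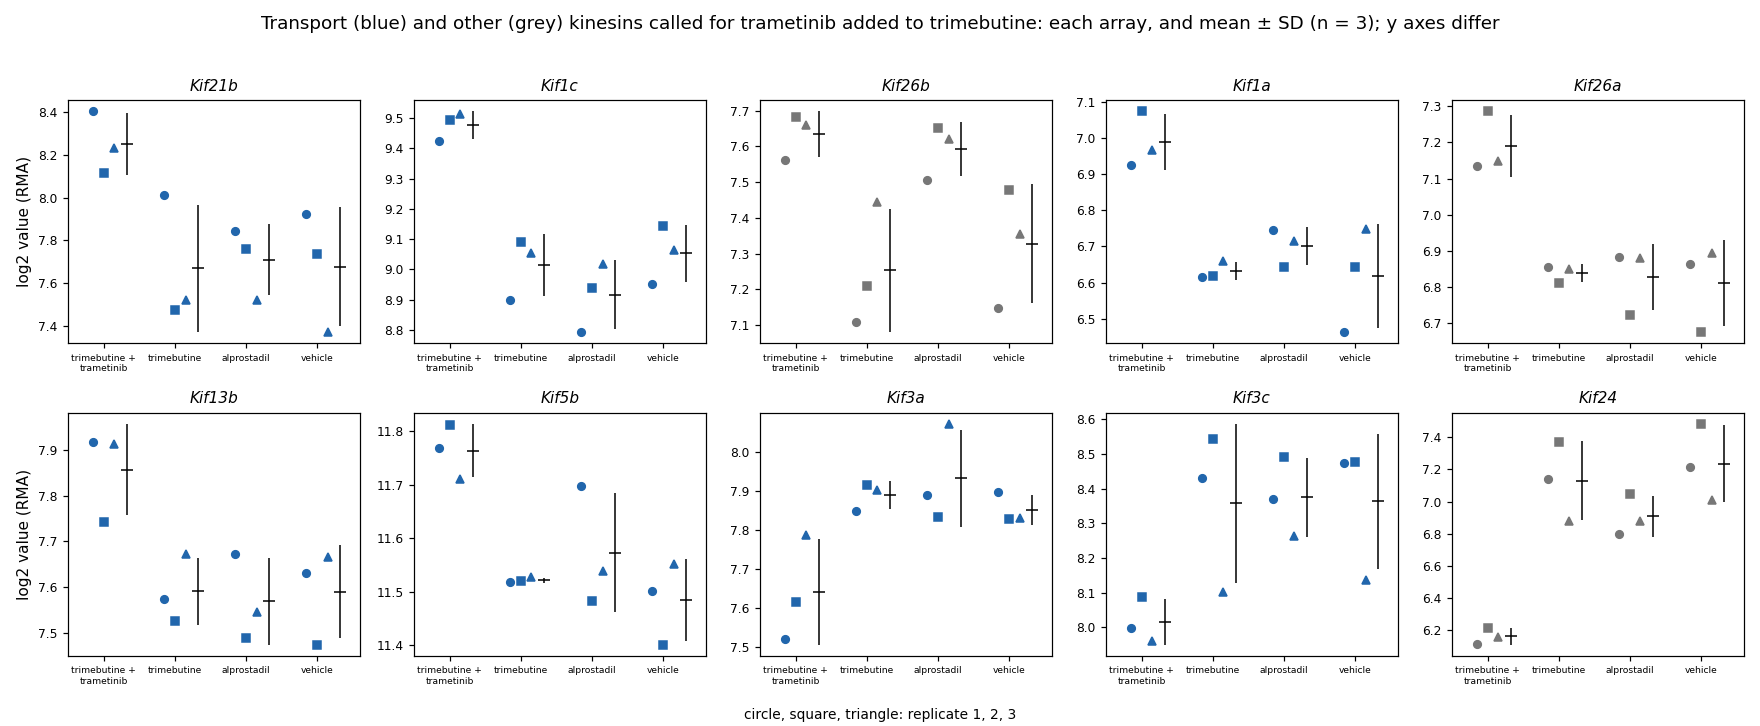
Log2 expression value (y axis, a scale of its own in each panel) on each array for the 7 transport (blue) and 3 other (grey) kinesins called for trametinib added to trimebutine, in the 4 treatment groups (x axis). Bars are the mean ± SD (n = 3). Kif21b, Kif1c, Kif1a, Kif26a, Kif13b and Kif5b lie higher in the combination than on all 9 other arrays, and Kif3a, Kif3c and Kif24 lower.

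Against vehicle, the combination gave 13 lower and 9 higher kinesins of 35, beside 17.5% of all genes in each direction (35% in either, and 43.2% with the replicate block). This comparison shares the combination arrays with the one above. The 11 mitotic kinesins fell here too, with Kif23 at −2.80 and Kif11 at −2.59 as the largest, and Kif24 fell by 1.08 (log2 difference −1.08). Among transport kinesins 7 rose and 1, Kif3c (−0.35), fell. Kif3b (0.21, limma adjusted p = 0.0357) and Kif5a (0.25, limma adjusted p = 0.0479) rose in addition to the 5 named above, and Kif3a (−0.21, limma adjusted p = 0.0597) did not pass, though it did with the replicate block (adjusted p = 0.0316).

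The calls for Kif3b, Kif3c and Kif5a against vehicle did not survive leaving out single arrays, with adjusted p up to 0.0982 for Kif3b, 0.146 for Kif3c and 0.155 for Kif5a. The lowest array of Kif5a, 5.84 with alprostadil, lay just above the limit for dim signals. Over all alternatives the calls against vehicle were lost in 7 of 14 for Kif3b, 7 of 14 for Kif3c and 10 of 13 for Kif5a. That of Kif26b (0.31, limma adjusted p = 0.0325) was lost without combination replicate 2 or 3 or vehicle replicate 1 or 3 (adjusted p up to 0.134), that of Kif21b without combination replicate 1 or vehicle replicate 3 (up to 0.0710) and that of Kif13b without combination replicate 1 or 3 or vehicle replicate 2 (up to 0.0841).

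Against alprostadil, the combination gave 14 lower and 7 higher kinesins, beside 18.2% and 19.6% of all genes (37.9% in either direction, and 46.4% with the replicate block). The same 11 mitotic kinesins and Kif24 (−0.75) fell, together with Kif3a (−0.29) and Kif3c (−0.36). Kif1c had the largest rise of the transport class in this comparison, by 0.56 (SE 0.08, limma adjusted p = 0.000171). The others that rose were Kif21b (0.54), Kif26a (0.36), Kif13b (0.29), Kif1a (0.29), Kif5a (0.28) and Kif5b (0.19). Calls were lost without 1 or more single arrays for Kif3a (adjusted p up to 0.0557), Kif3c (up to 0.121), Kif5a (up to 0.111), Kif5b (up to 0.152), Kif13b (up to 0.0517) and Kif21b (up to 0.0837).

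Alprostadil was compared with vehicle to see what a prostaglandin does to these genes. No kinesin of the 35 tested passed, beside 0.389% of all genes (1.88% with the replicate block). An unadjusted p under 0.05 in limma was found for 2 of the 35, beside 950 of all 13636 genes tested. The 2 kinesins were Kif26b (0.27, SE 0.10, adjusted p = 0.574) and Kif24 (−0.33, SE 0.13, adjusted p = 0.639). The 3 alprostadil arrays of Kif26b lay above the 3 vehicle arrays, and those of Kif24 overlapped. For the transport gene Kif13a (−0.11) the alprostadil arrays lay below the vehicle arrays. The share of all genes whose arrays separate in this comparison was not counted. With the block the adjusted p was 0.107 for Kif26b and 0.102 for Kif24.

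The mitotic members differed by −0.29 to 0.02 between alprostadil and vehicle, with 11 of 13 below 0 and a median of −0.11. Over all genes tested 7440 of 13636 were below 0 and the median was −0.01. All members were read on the same arrays, so their signs are not independent. The 95% intervals of the tested mitotic kinesins reached from −0.65 at the lowest to 0.28 at the highest. Kif18b had the lowest value, −0.29 (SE 0.17, adjusted p = 0.812, and adjusted p = 0.144 with the block). Transport kinesins lay from −0.14 to 0.09, with a median of −0.03.

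Trimebutine alone left every kinesin within 0.16 of its vehicle level on the log2 scale. None of 35 passed, beside 0% of all genes, and none had an unadjusted p under 0.05 in limma, beside 143 of all 13636 genes tested. The mitotic members lay from −0.16 (Kif4a) to 0.11 (Kif15), with 95% intervals that reached from −0.49 to 0.44 across the 12 tested. The transport kinesins lay from −0.05 to 0.09, with intervals from −0.37 to 0.35. The smallest unadjusted p-values were those of Kif7 and Kif4a. Kif7 read 7.40, 7.32 and 7.37 with trimebutine, against 7.30, 7.32 and 7.26 with vehicle (difference 0.07, SE 0.06), groups that overlapped.

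**Figure D4:**
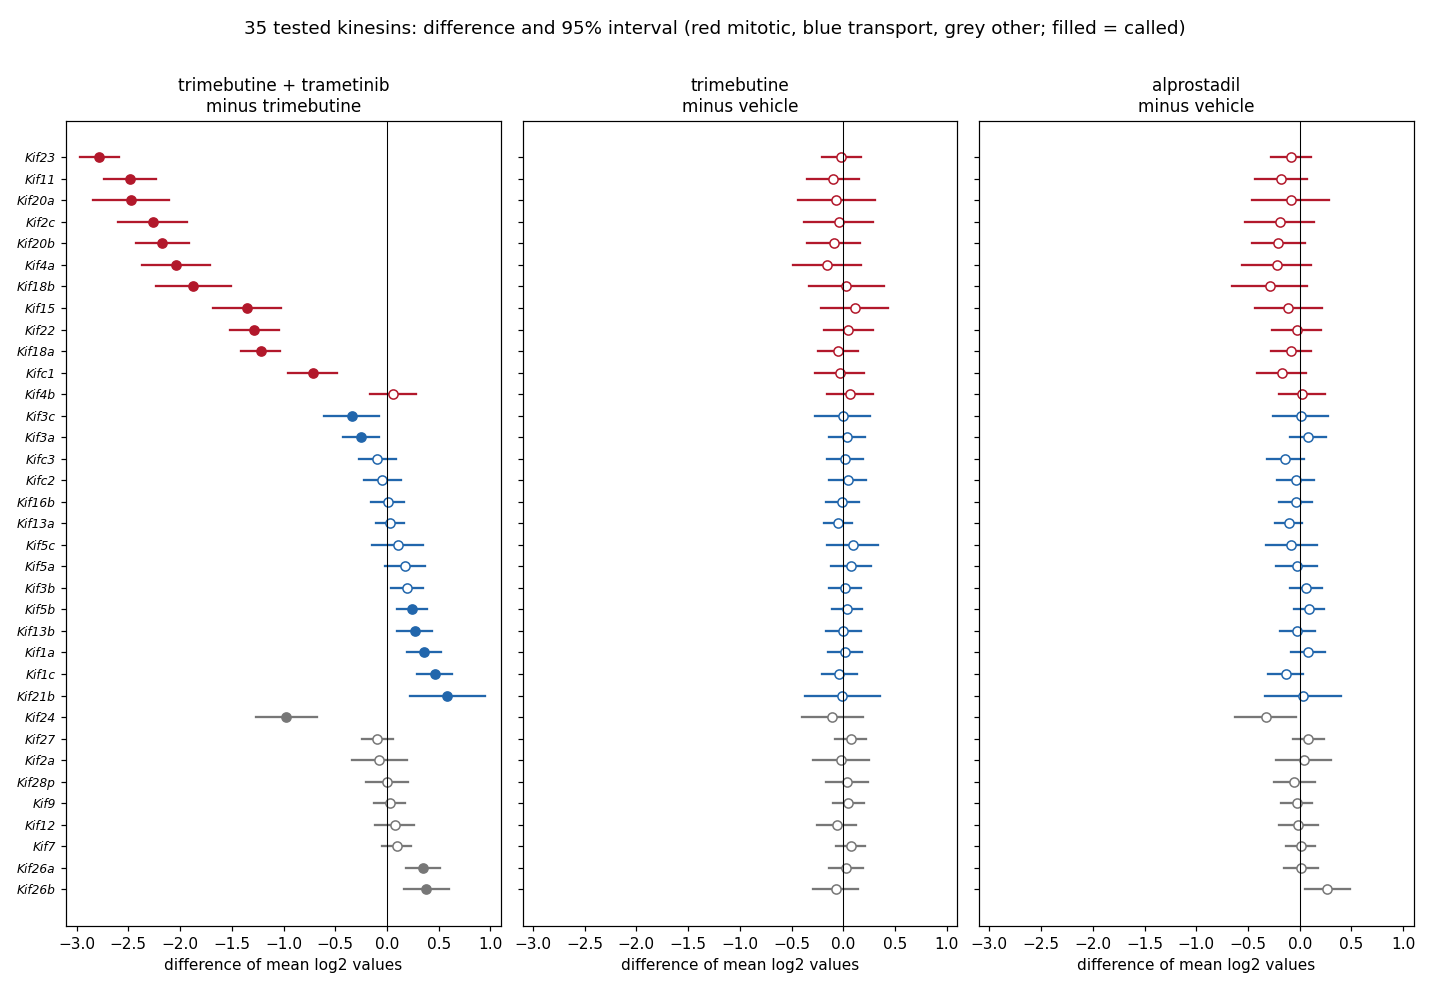
Difference of mean log2 values (x axis) with its 95% interval for the 35 tested kinesins (rows), for 3 comparisons. Red marks mitotic, blue transport and grey other kinesins, and filled points passed limma's adjusted p of 0.05. In the left panel 11 mitotic kinesins and Kif24 stand to the left of the rest, and in the other 2 panels no point is filled.

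The effect of alprostadil over vehicle was set against that of trametinib over trimebutine, since these 2 comparisons share no array. The trametinib effect was subtracted from the alprostadil effect, so a positive value marks a more negative effect of trametinib. The difference of differences passed for 14 kinesins of 35, beside 21.8% of all genes. They were the 11 mitotic kinesins, from 0.54 (Kifc1) to 2.70 (Kif23, SE 0.12, limma adjusted p = 3.38e-07), and Kif24 (0.64), Kif26a (−0.34) and Kif1c (−0.60, SE 0.11, limma adjusted p = 0.00248). A moderated F test across the 4 groups passed for 20 kinesins, beside 32.5% of all genes. These were the 11 mitotic ones, Kif24, Kif26a, Kif26b and the transport genes Kif1a, Kif1c, Kif3a, Kif5b, Kif13b and Kif21b.

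Genes that work with kinesins were read in the same comparison. All 14 measured partners of mitotic kinesins fell (median −2.03), beside 16.6% of all genes. They included the centralspindlin partner genes Racgap1 (−1.97) and Ect2 (−2.73). Tpx2 (−2.25), which loads motors onto spindle microtubules, and the kinetochore genes Ndc80 (−2.60) and Nuf2 (−2.31) were also among them. Beside that share of 16.6%, 12 of 15 cell cycle regulators and proliferation genes fell and none rose (median −1.40). Top2a (−3.15) and Mki67 (−2.91), markers of dividing cells, Ccna2 (−2.51) and Ccnb1 (−2.34) had the smallest p-values among them, and Foxm1 (−1.40) and Mybl2 (−1.28), which encode activators of mitotic genes, fell too. The part that the share of dividing cells had in the fall of the kinesins was not tested.

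Of 10 cargo adaptors and light chains of kinesin-1 and kinesin-2, 3 rose, 1 fell and 6 did not pass, beside 33.4% of all genes that passed. Trak1, which links mitochondria to kinesin-1, rose by 0.83 (SE 0.08, limma adjusted p = 9.15e-06), the scaffold gene Mapk8ip1 by 0.57 and the light chain gene Klc1 by 0.39, while Kifbp, a kinesin-binding protein gene, differed by −0.37. Of 16 tested subunits of dynein and dynactin, the motor that walks the other way, 7 rose and 1 fell (median 0.13), beside 16.8% and 16.6% of all genes. Dynlt1 (0.85, SE 0.06, limma adjusted p = 7.86e-07), Dync1li2 (0.44) and Actr1b (0.41) rose, and Dync1li1 differed by −0.22. Dync1h1, the heavy chain gene, rose by 0.30.

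Among 13 genes of transport inside cilia 1 rose and 4 fell (median −0.16), or 1 and 5 with the replicate block, beside 16.8% and 16.6% of all genes without it. These were Ift20 (0.29), Ift74 (−0.36), Ift140 (−0.26), Ift80 (−0.49) and Ift46 (−0.24). Of 10 tubulin genes, the tracks of these motors, 3 rose and 2 fell, beside 16.8% and 16.6% of all genes. With the replicate block 3 rose and 4 fell, beside 42% of all genes in either direction. Tubb3 (2.86) and Tubb2a (1.12), isotypes best known from neurons, and Tuba4a (0.50) rose, while Tuba1b (−0.40) and Tuba1c (−0.52) fell. No gene of these 6 lists passed for alprostadil or for trimebutine alone.

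Kif1a and Kif21b are best known from neurons, and so markers of other cells were read beside them. Over all genes 33.4% passed without the block and 42% with it. Of 6 tested neuron markers none passed without the block, and with it 2, Map2 (−0.36) and Nefl (−0.32), fell. Tubb3 (2.86) and Tubb2a (1.12), also best known from neurons, were counted with the tubulins and not in this list, and both rose. The mean log2 value of all 10 neuron markers lay from 6.15 to 6.34 with trimebutine and trametinib, against 6.31 to 6.38 with trimebutine, and Snap25, Syt1, Nefm and Elavl4 were under the limit for dim signals. Of 7 tested Schwann and melanocyte markers Dct (0.31) rose, and with the block S100b (0.58) rose too. Of 7 macrophage and leukocyte markers Cd68 (−1.03) fell, and with the block Cd14 (−0.68) and Ptprc (−0.47) fell too and Csf1r (0.31) rose. None of 4 keratinocyte or 2 endothelial markers passed in either fit. The mean over 8 macrophage markers ran from 7.18 to 7.84 with the combination, against 7.49 to 8.29 with trimebutine, and the part of any of these markers in the kinesin results was not tested.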

How the data were processed

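RNA of 12 cultures was measured on 1-colour arrays. Each array's deposited log2 values were summarised by feature using RMA in oligo, as named in the submitters' processing notes, with no version stated there. RMA equalises the arrays' distributions and so hides any change in a cell's total RNA. Symbols came from the platform annotation (18511 of 36685 features had exactly 1) and were updated by Entrez identifier to GRCr8, which changed 0 kinesin symbols. The brightest feature stood for each gene. Genes with a mean under the 25th percentile of those features, a log2 value of 5.83, were left out, and 13636 of 18166 were tested.

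All 12 arrays entered 1 limma model (limma 3.58.1, R 4.3.3) with a mean per group. Contrasts were tested two-sided with eBayes and Benjamini-Hochberg adjustment over all genes tested, and intervals are at 95%. The number of arrays limits the precision. Labels gave each group replicate numbers 1 to 3. In all 18 same-number pairs the deviations from group means correlated (r 0.21 to 0.81, against −0.71 to 0.10 for the 36 others). Same-numbered samples were therefore matched in the differences by isolate and in an alternative fit with the number as a block. The main fit had no replicate term, so its SEs, p-values and intervals do not use this pairing. The fitting steps were first tested on simulated data. The p-values reflect spread among these 3 isolates.

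The members, classes, partner lists and markers were chosen with earlier results of these data known. Values on every array are given for the transport and other kinesins called for trametinib, for 6 mitotic kinesins with the largest falls and the smallest one called, and partners were named by smallest p. Partner genes named beyond 4 per list, and those named to complete a count, were chosen after their values were seen. Alternatives were the replicate block, no filter, a stricter filter, the mean of features, array centring, quantile normalization, a variance trend, a fit of only 2 groups, and leaving out each array.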

Additional observations from a re-analysis of the deposited data

How the results depend on the processing

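With the replicate number as a block, the kinesin calls were 21 for the combination against trimebutine, 23 against vehicle and 22 against alprostadil, beside 21, 22 and 21 without it. The block added Kif3a against vehicle and Kif5c against alprostadil, gave 0 for alprostadil and for trimebutine against vehicle, and ended no call. By the F test 21 kinesins passed with it (20 without, beside 32.5% of all genes). For the differences of differences 18 passed (14 without, beside 21.8% of all genes). The shares of all genes with the block were not counted for these, so the blocked counts show nothing particular to kinesins. Across the other settings with all arrays the 3 combination counts ran from 18 to 21, 19 to 22 and 16 to 21, and without single arrays from 17 to 19, 18 to 20 and 17 to 21. The median of the mitotic less that of the transport differences, over tested members, was −2.10, from −2.22 to −1.96 in all settings. Of 68 gene results followed, 50 kept direction and status, called or not, in every setting that tested them. Among the 50 were Kif26b and Kif24 for alprostadil and Kif7 and Kif4a for trimebutine, which had no call to lose. The other 18 lost the call in at least 1 setting, and 0 reversed. All 18 were transport kinesins or Kif26b. Array centring ended the calls of Kif26b, Kif3b and Kif5a against vehicle and of Kif5b against alprostadil. Testing with no filter, quantile normalization, a variance trend or only 2 groups ended others, all in Kif3a, Kif3b, Kif3c, Kif5a and Kif5b, and the cause was not tested. The stricter filter left 23 kinesins to test. Whether dim signals limit the sizes of falls, as in Kif2c and Kif20b, was not tested.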

Other observations

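In the combination, replicate 2 was the highest array for 4 of 12 tested mitotic kinesins and replicate 1 for 7, while replicate 2 was the highest for 11 in trimebutine, 10 in alprostadil and 11 in vehicle. The median over all 13 mitotic members was 6.42, 6.37 and 6.16 in combination replicates 1 to 3, against 8.13, 8.40 and 7.87 in trimebutine, 7.91, 8.19 and 7.92 in alprostadil and 8.21, 8.42 and 7.94 in vehicle. Of 14 transport kinesins, replicates 1, 2 and 3 were the highest array for 3, 7 and 4 in the combination, 3, 5 and 6 in trimebutine, 8, 2 and 4 in alprostadil and 4, 5 and 5 in vehicle. These counts describe 3 isolates, carry no test and were not set against all genes.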
